A study of Homo sapiens with 9 samples.

Results

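Cancer-testis antigen genes were followed in A375, a BRAF-mutant human melanoma line, after exposure to TP-472, a chemical probe that targets BRD9 and BRD7. The genes were taken by symbol, as all those beginning with MAGE and a letter from A to L, with SSX, GAGE or XAGE and a digit, or with CTAG, together with PRAME. The rule found 90 of the 26475 symbols in the deposited table. They comprised 14 MAGEA, 10 MAGEB, 3 MAGEC, 4 MAGED, 2 MAGEE, 22 GAGE, 5 XAGE, 11 SSX and 3 CTAG symbols, PRAME, and 3 symbols of MAGEF, MAGEH and MAGEL. A further 12 symbols (SSX2IP, 10 CTAGE symbols and the antisense RNA MAGEA8-AS1) met the rule by spelling and are not cancer-testis antigens of these families. They are described apart but stay in the counts of members.

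Cancer-testis antigens are proteins made mainly in male germ cells and placenta and re-expressed in many tumors, where DNA methylation of their promoters is a known means of silencing. Many are presented to T cells, and MAGEA1 was found as a melanoma antigen. Type I MAGE genes (MAGEA, MAGEB and MAGEC) lie on the X chromosome and are restricted in this way, whereas type II MAGE genes (MAGED, MAGEE, MAGEF, MAGEH and MAGEL) are expressed in many normal tissues. MAGE proteins bind RING-type E3 ubiquitin ligases such as TRIM28, PRAME is a substrate receptor of a cullin ubiquitin ligase, CTAG1B encodes NY-ESO-1, and SSX proteins are chromatin-associated repressors whose fusion to SS18, a subunit of the same chromatin remodelling complex as BRD9, marks synovial sarcoma.

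The study sequenced mRNA from A375 cells kept for 24 h in the solvent DMSO or in TP-472 at a dose of 5 µM or 10 µM, with 3 libraries in each group and no genetic change between the groups. All libraries came from a single cell line, and no label ties any of them to a particular culture or day. Each library held 42483091 to 51298130 expected counts. Levels are given as CPM (counts relative to the scaled library size), and changes as the log2 fold change fitted with edgeR's quasi-likelihood test over all genes. A gene was called where the Benjamini-Hochberg adjusted p was under 0.05 and the fold change 1.5 or more. The 10 defining genes of melanoma cells and melanocytes summed to between 1205 and 1221 CPM in DMSO, between 930.4 and 961 CPM at 5 µM and between 686 and 743 CPM at 10 µM. Among them CSPG4 averaged 704, 446 and 229 CPM in the DMSO, 5 µM and 10 µM groups. SOX10 averaged 417, 413 and 391 CPM and MITF 31.9, 29.8 and 29.1 CPM in the same groups. In DMSO, PMEL stood at 1.48, TYRP1 at 0.331 and MLANA at 0.173 CPM, and TYR was at 0 in every library. Germ cell markers (DDX4, DAZL, SYCP3, TNP1 and PRM1) summed to at most 1.29 CPM in any library, with TNP1 and PRM1 at 0 throughout. Leukocyte markers (PTPRC and CD3E) reached at most 0.537 CPM, endothelial markers (PECAM1 and CDH5) 2.67 CPM and epithelial markers (KRT5, KRT14, EPCAM and CDH1) 10.9 CPM in any library. In bulk RNA, fewer cells with a transcript and less of it per cell cannot be told apart.

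One library, 10 µM replicate 1, differed from the rest of its group by transcript length. In it, the decile of tested genes with the shortest exonic length (up to 1865 bases) lay a median of 0.40 above the other 10 µM libraries on the log2 scale, and the longest decile lay 0.45 below them (log2 difference -0.45). The corresponding medians in the DMSO and 5 µM libraries were all within 0.04 of 0. Calls are therefore also counted without this library. Fitted 10 µM values are given without it for a part of the genes where that changed the call or moved the value by over 1.5 times. The part of transcript length in them was not tested. The fit without this library keeps only replicates 2 and 3 at 10 µM. It again shares 1 estimate of the spread over all groups. Adjusted p values at 5 µM therefore change in it, although the 5 µM and DMSO libraries are the same.

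**Figure D1:**
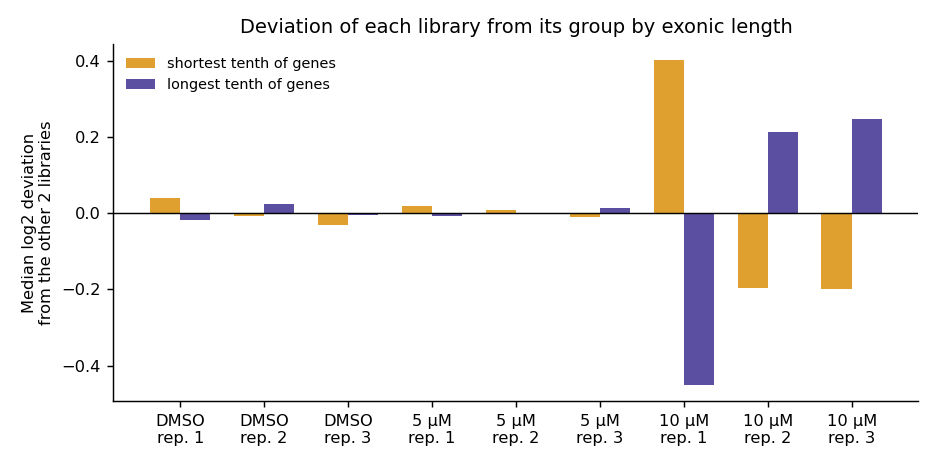
Median log2 deviation of each library from the mean of the other 2 libraries of its group, for the shortest and the longest decile of tested genes by exonic length. The bars of 10 µM replicate 1 reach 0.40 and -0.45, those of the other 10 µM libraries point the opposite way because their mean includes it, and those of the DMSO and 5 µM libraries stay within 0.04 of 0.

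RefSeq entries for the 250 bases before the transcription start were found for 61 of the 90 symbols. The median upstream window of these members held 8 CpG dinucleotides, against 11 over all 35116 entries (interquartile range 3 to 23). Near-identical copies shared their upstream sequence as well as their transcripts. MAGEA3 and MAGEA6 differed at 0 of 250 positions, as did MAGEA9 and MAGEA9B, and 8 GAGE entries (GAGE12C, GAGE12D, GAGE12E, GAGE12F, GAGE12H, GAGE12J, GAGE13 and GAGE2A) were identical with each other. The windows of 6 members are printed 5′ to 3′ with CpG in capitals, without bases that lie in an annotated transcript of the gene. They are the most expressed member (MAGEA4, chrX:151912224-151912473 on the plus strand), one of the identical pair (MAGEA3, chrX:152698544-152698751 on the plus strand), a member that rose at 10 µM (MAGEB2, chrX:30215313-30215559 on the plus strand), the 2 higher of the 3 MAGEC genes, all with single-copy sequence (MAGEC1, chrX:141903644-141903893 on the plus strand, and MAGEC2, chrX:142205291-142205540 on the minus strand), and the window shared by the GAGE copies (GAGE12C, chrX:49531927-49532176 on the plus strand). All coordinates are on GRCh38.p14.
MAGEA4: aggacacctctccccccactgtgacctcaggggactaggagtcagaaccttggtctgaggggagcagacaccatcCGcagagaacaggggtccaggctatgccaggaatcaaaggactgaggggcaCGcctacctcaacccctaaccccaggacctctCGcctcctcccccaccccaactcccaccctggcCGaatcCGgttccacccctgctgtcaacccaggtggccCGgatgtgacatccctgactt
MAGEA3: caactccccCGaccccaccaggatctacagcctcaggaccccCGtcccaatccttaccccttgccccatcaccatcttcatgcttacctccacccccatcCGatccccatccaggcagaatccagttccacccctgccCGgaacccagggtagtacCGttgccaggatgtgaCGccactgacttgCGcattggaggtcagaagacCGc
MAGEB2: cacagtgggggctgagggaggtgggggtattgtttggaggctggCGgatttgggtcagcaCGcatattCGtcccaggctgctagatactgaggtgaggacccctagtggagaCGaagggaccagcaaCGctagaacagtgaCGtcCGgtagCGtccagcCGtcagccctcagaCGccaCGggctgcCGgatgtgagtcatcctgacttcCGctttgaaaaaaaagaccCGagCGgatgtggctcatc
MAGEC1: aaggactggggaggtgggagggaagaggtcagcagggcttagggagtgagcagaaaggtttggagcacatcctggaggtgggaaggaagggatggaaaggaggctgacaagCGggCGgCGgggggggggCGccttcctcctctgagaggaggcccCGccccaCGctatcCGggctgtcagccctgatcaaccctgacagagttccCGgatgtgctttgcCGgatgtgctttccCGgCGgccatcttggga
MAGEC2: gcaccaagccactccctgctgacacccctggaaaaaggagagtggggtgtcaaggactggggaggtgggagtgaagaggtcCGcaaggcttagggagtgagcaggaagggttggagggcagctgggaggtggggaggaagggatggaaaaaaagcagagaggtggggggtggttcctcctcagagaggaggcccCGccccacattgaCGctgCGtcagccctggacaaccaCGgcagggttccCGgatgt
GAGE12C: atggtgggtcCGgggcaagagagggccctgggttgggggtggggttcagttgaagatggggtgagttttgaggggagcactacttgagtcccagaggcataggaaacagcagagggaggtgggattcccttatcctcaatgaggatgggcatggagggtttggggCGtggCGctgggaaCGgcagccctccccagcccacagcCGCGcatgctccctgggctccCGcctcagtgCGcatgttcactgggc

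The printed type I MAGE sequences, except that of MAGEA3, have a run of letters in common near the start site. The letters CGGATGT, or ACATCCG on the other strand, were searched for in the 250-base windows after these sequences had been read. They were present in 12 of 22 type I MAGE windows (54.5%), among them 8 of 10 MAGEA, 2 of 9 MAGEB (MAGEB2 and MAGEB10) and 2 of 3 MAGEC windows (MAGEC1 and MAGEC2). They were present in 1.17% of all windows and in 0 of 12 GAGE, 4 XAGE and 4 MAGED windows. MAGEA3 and MAGEA6 lacked them, and SSX2 and SSX2B were the other members with a match. A second motif, CCGGAA or TTCCGG, which can overlap the first by its letters CGG, was present in 5 of the 61 member windows (8.20%, against 14.5% of all windows). The counts of the first motif include the printed windows in which it was read. They also count copies such as MAGEA9 and MAGEA9B separately, so they are not a test of it. A match of letters is a description of the sequence only.

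The filter on low counts passed 48 of the 90 symbols, out of 16417 genes tested. In DMSO the 90 symbols together took 0.206% to 0.212% of all counts. MAGEA genes made up 58.3% of that sum, and MAGEA4 alone made up 35.5%. On a scale of CPM per kilobase of exonic sequence, MAGEA4 was the most abundant member at 240 ± 3.87 (SD, n = 3), at the 99.4th percentile of tested genes with a known length. It was followed by MAGEA3 at 69.8 ± 1.15, CTAG1A at 62.2 ± 1.67, MAGEC2 at 55.0 ± 1.54, MAGEA6 at 49.9 ± 1.80, PRAME at 44.8 ± 0.588, XAGE1B at 42.8 ± 2.76 and MAGEA12 at 41.3 ± 0.977 CPM per kilobase. In this order the libraries of CTAG1A overlapped those of CTAG1B, those of PRAME overlapped those of XAGE1B, and those of XAGE1B overlapped those of MAGEA12. GAGE12B is left out of the order because its annotated sequence is only 117 bases long. CTAG1A and XAGE1B carry only their share of reads split equally with CTAG1B and XAGE1E. Their place in the order depends on that split. Type II genes were lower than the members named in this order, with MAGEF1 at 26.3 ± 1.65, MAGED1 at 19.98 ± 0.598, MAGED2 at 19.8 ± 0.66 and MAGEH1 at 2.74 ± 0.37 CPM per kilobase. They were not lower than all type I genes. MAGEF1, MAGED1 and MAGED2 lay above MAGEA10 at 15.7 and MAGEA11 at 8.10 CPM per kilobase. MAGEA1, the first member of its family to be described, had 0.362, 0.556 and 0.284 CPM in the DMSO libraries.

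At 5 µM, 1 of the 48 tested members was called, MAGEH1, and it rose. That is 2.08% of the members, beside 4.87% of all genes tested. In the upward direction 2.14% of all genes were called. At an unadjusted p under 0.05 there were 8 members (beside 24.4% of all genes), and DESeq2 called 3 members up (GAGE6, MAGEB2 and MAGEH1, beside 3.02% of all genes). The median log2 fold change over the 48 members was 0.21, and over all tested genes it was 0.01. The libraries of 21 members did not overlap between 5 µM and DMSO (43.8%, beside 48.8% of all genes), with 17 higher and 4 lower, against 23.7% and 25% of all genes in these directions. All 15 tested type I MAGE symbols had a log2 fold change above 0, with a median of 0.25. By edgeR's quasi-likelihood test 0 of them were called. At 10 µM, 14 of the 15 were above 0, with a median of 0.36. Several are copies that share reads, such as MAGEA3 and MAGEA6, so the 15 are not separate measurements. The share of all genes above 0 was not counted.

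At 10 µM, 6 members rose and 0 fell of the 48 tested, namely MAGEA2, MAGEA9, MAGEB2, MAGEH1, XAGE1B and XAGE1E. That is 12.5% of the members, beside 19.1% of all genes, with 8.57% of all genes called up and 10.5% called down. Without the symbols that met the rule by spelling it is 6 of 45 (13.3%). At an unadjusted p under 0.05 there were 18 members (beside 44% of all genes), and DESeq2 called 9 members up (beside 9.73% of all genes), GAGE6, GAGE12B and MAGEC1 in addition to these 6. With no limit on the fold change the adjusted p of 11 members was under 0.05, all higher, beside 34.3% of all genes in either direction and 16.4% in the upward one. The 5 added were MAGEA3, MAGEA6, MAGEA11, MAGEA12 and MAGEC2. XAGE1B and XAGE1E carry the same values and count as 2 of the members called. With near-identical copies summed, 5 of 32 features rose and 0 fell, beside 3140 of 16401 features called in either direction. The 5 were the GAGE sum, the MAGEA9 pair, MAGEB2, MAGEH1 and the XAGE1 pair. The median log2 fold change of the members was 0.27. Libraries did not overlap for 16 members (33.3%, beside 49.4% of all genes), with 14 higher and 2 lower, against 23.4% and 26% of all genes.

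Without 10 µM replicate 1, 51 members passed the filter and 7 rose (MAGEA2, MAGEA9, MAGEB2, MAGEH1, MAGEC1, MAGEA5 and GAGE4) while 3 fell (CTAG1A, CTAG1B and CTAGE7P) at 10 µM. These 10 are 19.6% of the members tested, beside 19.2% of all genes. CTAG1A and CTAG1B carry the same values and are not separate measurements. XAGE1B and XAGE1E were then under the fold limit. At 5 µM the same fit called 4 members up, MAGEB2, MAGEC1 and GAGE6 in addition to MAGEH1, which is 7.84% of the members beside 7.41% of all genes. With no limit on the fold, 14 members rose and 2 fell at 5 µM, and 15 rose and 6 fell at 10 µM, which are 31.4% and 41.2% of the members beside 34.2% and 48.8% of all genes.

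**Figure D2:**
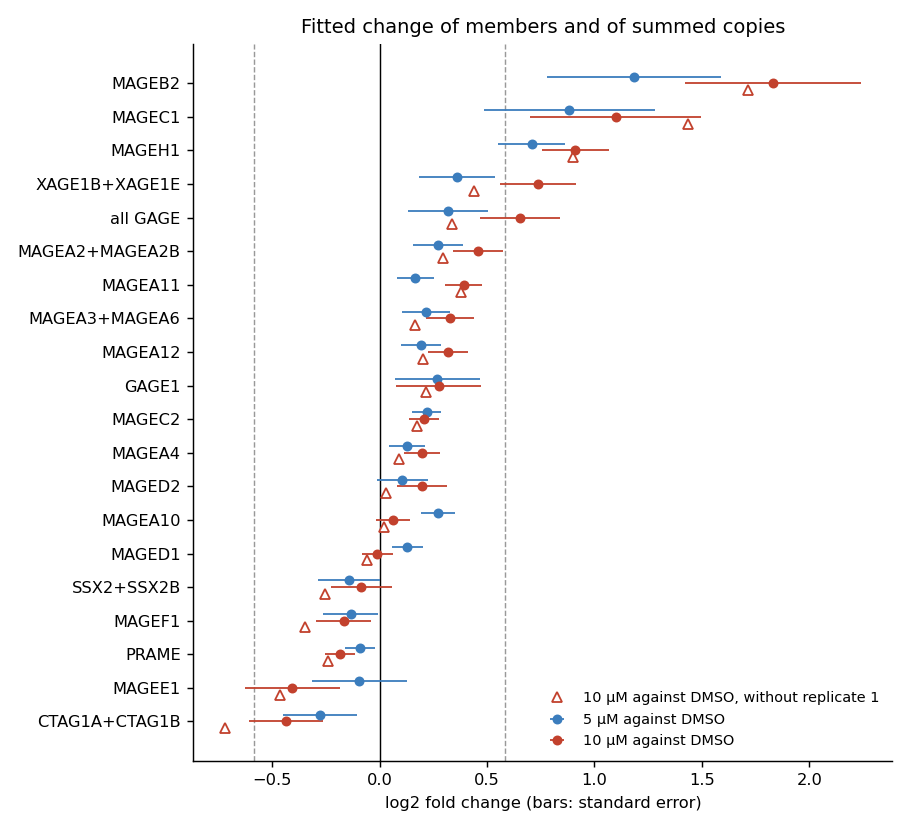
Fitted log2 fold change against DMSO for members with mostly unique sequence and for summed copies, with the standard error as a bar (20 features, leaving out those with a standard error of 0.5 or more at 10 µM). Dashed lines mark a 1.5-fold change and triangles the 10 µM value without replicate 1. MAGEB2, MAGEC1 and MAGEH1 lie farthest to the right, and the summed CTAG1 copies move from -0.44 to -0.72 without that replicate.

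The MAGEA genes encode nuclear and cytoplasmic antigens that act with ubiquitin ligases. Summed over 14 symbols they stood at 1239, 1204 and 1201 CPM in the DMSO libraries, 1373, 1364 and 1354 CPM at 5 µM, and 1674, 1338 and 1337 CPM at 10 µM. Every treated library was above every DMSO library, by 12.3% of the mean at 5 µM and 19.3% at 10 µM (10.1% without replicate 1). The sum was given no test.

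MAGEA4, the largest part of that sum, measured 752, 732 and 731 CPM in DMSO, 809, 803 and 804 CPM at 5 µM and 964, 770.1 and 804 CPM at 10 µM. Neither treated group overlapped DMSO, but the log2 fold changes of 0.13 (SE 0.08, adjusted p = 0.419) and 0.20 (SE 0.08, adjusted p = 0.0968) were not called. Without 10 µM replicate 1 the values were 0.13 (adjusted p = 0.0018) and 0.09 (adjusted p = 0.0199), both under the fold limit.

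MAGEA3 and MAGEA6, of whose 50-base transcript stretches 43.5% and 46.1% are found in no other gene, had similar changes. MAGEA3 measured 127, 124 and 123 CPM in DMSO, 149.6, 149.8 and 144 CPM at 5 µM and 198, 141 and 139.8 CPM at 10 µM. With both symbols summed before the fit, the log2 fold change at 10 µM was 0.33 (SE 0.11, adjusted p = 0.0427), below the fold limit, and 0.17 without replicate 1. MAGEA11, a coregulator of the androgen receptor, had single-copy sequence and a log2 fold change of 0.39 at 10 µM (SE 0.09, adjusted p = 0.00655) and 0.38 without replicate 1. Its libraries stood at 27.6, 29.4 and 27.1 CPM in DMSO, 32.8, 32.2 and 29.5 CPM at 5 µM and 37.1, 39.4 and 33.8 CPM at 10 µM. MAGEA12 had 0.32 at 10 µM (adjusted p = 0.0259) and 0.20 without replicate 1 (adjusted p = 0.00258).

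MAGEA10 had its highest libraries at 5 µM. It measured 45.1, 45.3 and 46.5 CPM in DMSO, 54.8, 54.4 and 56.0 CPM at 5 µM and 50.2, 49.6 and 43.2 CPM at 10 µM, where the last group overlapped DMSO. The log2 fold changes were 0.27 (adjusted p = 0.0546) and 0.06 (adjusted p = 0.574). Without 10 µM replicate 1 they were 0.27 (adjusted p = 0.00148) and 0.02 (adjusted p = 0.799), and 10 µM was lower than 5 µM by a log2 difference of -0.25 (adjusted p = 0.00922), all under the fold limit.

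MAGEA2 rose at 10 µM by a log2 fold change of 0.73 (SE 0.18, adjusted p = 0.0104). It measured 36.0, 42 and 41.4 CPM in DMSO, 62.2, 65.1 and 40.9 CPM at 5 µM and 72.5, 53.7 and 71.9 CPM at 10 µM. Its copy MAGEA2B, with the same coding sequence in near-identical form, measured 71.9, 58.8 and 61.5 CPM in DMSO, 65.7, 60.6 and 82.0 CPM at 5 µM and 100.1, 79.1 and 50.7 CPM at 10 µM. The copies moved against each other in DMSO replicate 1, 5 µM replicate 3 and 10 µM replicate 3, where one was low and the other high or the reverse, and 3.62% of the 50-base stretches of MAGEA2 are unique to it. Summed, the pair stood at 108, 101 and 103 CPM in DMSO, 128, 126 and 123 CPM at 5 µM and 173, 133 and 123 CPM at 10 µM. The summed log2 fold change of 0.46 (SE 0.11, adjusted p = 0.0121) was under the fold limit, and was 0.29 without replicate 1.

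MAGEA9 was called at 10 µM on very few counts. With its copy MAGEA9B it held 2 counts over the 3 DMSO libraries, 33 over the 5 µM libraries and 109 over the 10 µM libraries. Relative to DMSO the ratio was 15.9 at 5 µM (95% exact interval 4.06 to 137) and 51.3 at 10 µM (13.9 to 429), where the intervals cover counting error only. In the 10 µM libraries the pair stood at 1.18, 0.192 and 0.859 CPM, each above the highest DMSO library at 0.0208 CPM. The call of MAGEA9 alone (adjusted p = 0.0236) was lost without DMSO replicate 1 (0.0797), DMSO replicate 2 (0.0797) or DMSO replicate 3 (0.0910). The remaining tested MAGEA symbols, MAGEA1 and the readthrough MAGEA10-MAGEA5, averaged under 1 CPM in every group and were not called.

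MAGEB2, a type I MAGE gene with single-copy sequence, had a larger called change than MAGEH1, the other called member with unique sequence. It measured 0.966, 0.391 and 0.567 CPM in DMSO, 1.18, 1.72 and 1.48 CPM at 5 µM and 2.64, 2.81 and 1.43 CPM at 10 µM. All treated libraries were above all DMSO libraries, at a log2 fold change of 1.18 at 5 µM (SE 0.41, adjusted p = 0.0993) and 1.83 at 10 µM (SE 0.41, adjusted p = 0.00673). It was the only MAGEB gene to pass the filter, and without 10 µM replicate 1 it had 1.71 (adjusted p = 0.00344).

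Among the MAGEC genes, MAGEC2 (also called CT10, abundant in melanoma) measured 113, 109.6 and 107 CPM in DMSO, 129, 123 and 132 CPM at 5 µM and 132, 121 and 127 CPM at 10 µM. Both treated groups lay above DMSO and overlapped each other. The log2 fold changes were 0.22 (SE 0.07, adjusted p = 0.0694) and 0.21 (SE 0.07, adjusted p = 0.0388), both under the fold limit, and without 10 µM replicate 1 they were 0.22 (adjusted p = 0.000754) and 0.17 (adjusted p = 0.00593). MAGEC1 (CT7), whose values are given because it was called in the fit without 10 µM replicate 1, was far lower. It measured 0.966, 0.844 and 1.44 CPM in DMSO, 2.30, 1.72 and 1.97 CPM at 5 µM, and 1.09, 3.25 and 2.61 CPM at 10 µM. The first 10 µM library lay within the DMSO range and the other 2 above it. Its log2 fold change at 10 µM was 1.10 (adjusted p = 0.0573) and 1.43 without replicate 1 (adjusted p = 0.00108). MAGEC3 stayed at 0.452 CPM or less in every library.

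**Figure D3:**
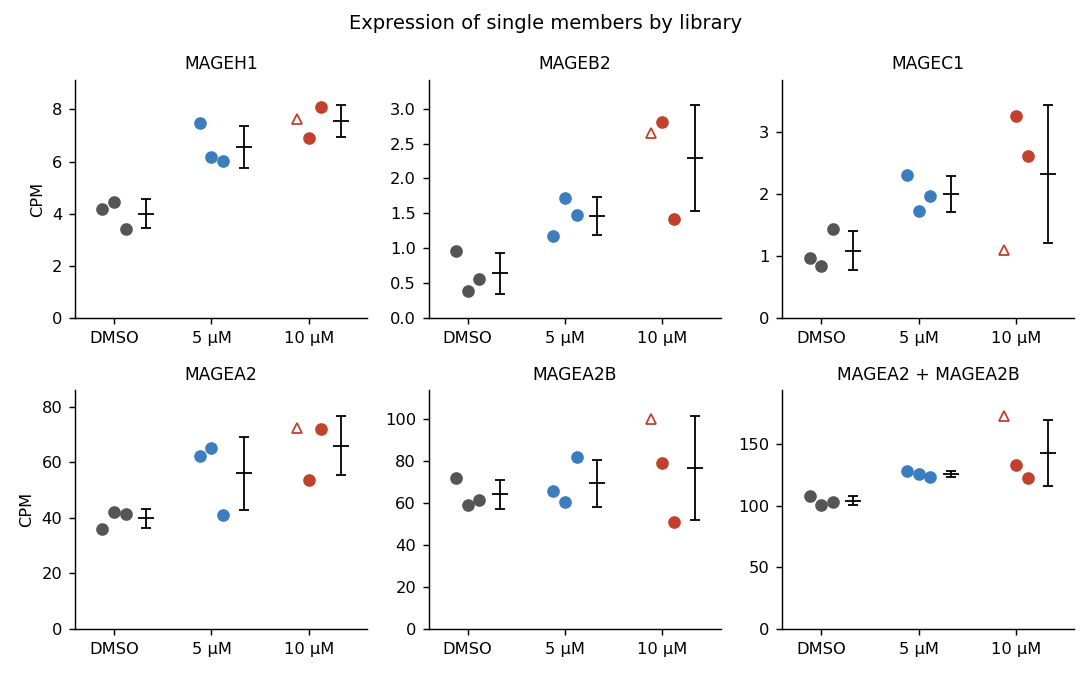
CPM of MAGEH1, MAGEB2, MAGEC1, MAGEA2, MAGEA2B and the summed MAGEA2 copies in each library, with the mean and SD of 3 libraries beside the points and an open triangle for 10 µM replicate 1. For MAGEH1 and MAGEB2 every treated library lies above every DMSO library. For the summed MAGEA2 copies the spread is smaller than for either copy at 5 µM and larger than for either copy at 10 µM.

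Of the 6 tested type II MAGE genes, MAGEH1 rose at both doses and the other 5 (MAGED1, MAGED2, MAGEE1, MAGEF1 and MAGEL2) were not called. MAGEH1, also known as APR-1, has single-copy sequence at chrX:55452105-55453566 (GRCh38). It measured 4.19, 4.44 and 3.40 CPM in DMSO, 7.47, 6.20 and 6.01 CPM at 5 µM and 7.64, 6.90 and 8.11 CPM at 10 µM. The log2 fold change was 0.71 at 5 µM (SE 0.16, adjusted p = 0.0192) and 0.91 at 10 µM (SE 0.16, adjusted p = 0.00166), and 0.90 at 10 µM without replicate 1. At 5 µM the call was lost in 5 of the 9 fits that left out 1 library, namely each DMSO library, 5 µM replicate 1 and 5 µM replicate 2 (adjusted p 0.0522 to 0.0963). MAGED1, an adaptor of the neurotrophin receptor pathway and the most abundant type II gene by CPM, measured 118, 118 and 124 CPM in DMSO, 129, 129 and 137 CPM at 5 µM and 127, 112 and 119 CPM at 10 µM. Its log2 fold change at 10 µM was -0.01 (adjusted p = 0.936) and turned to 0.03 with upper-quartile scaling, and was -0.06 without replicate 1 (adjusted p = 0.354). MAGEF1 had -0.17 at 10 µM (adjusted p = 0.351), and -0.35 without replicate 1 (adjusted p = 0.000544).

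XAGE1B and XAGE1E are copies of the XAGE-1 antigen gene, and the deposited counts split their reads equally, so that both symbols carry 1 value per library. Summed they stood at 129.5, 119 and 114 CPM in DMSO, 160.2, 148 and 158 CPM at 5 µM and 276, 169 and 160.1 CPM at 10 µM. The 10 µM replicate 1 was highest by a wide margin and the other 10 µM libraries were near those at 5 µM. The log2 fold change was 0.36 at 5 µM (SE 0.18, adjusted p = 0.253) and 0.74 at 10 µM (SE 0.18, adjusted p = 0.0102). Without replicate 1 it was 0.36 at 5 µM (adjusted p = 2.92e-05) and 0.44 at 10 µM (adjusted p = 4.66e-06), both under the fold limit. XAGE2 reached at most 1.63 CPM, in 10 µM replicate 1, and was not called.

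The 22 GAGE symbols are tandem copies on the X chromosome that encode short acidic antigens. Of the 13 tested GAGE symbols (GAGE1, GAGE2A, GAGE2B, GAGE2C, GAGE2E, GAGE6, GAGE7, GAGE8, GAGE12B, GAGE12C, GAGE12E, GAGE12H and GAGE12J), 0 were called at either dose by edgeR, beside 4.87% of all genes at 5 µM and 19.1% at 10 µM, with 1 at an unadjusted p under 0.05 at each dose (beside 24.4% and 44% of all genes). DESeq2 called GAGE6 at 5 µM, a symbol at 3.49 CPM in 5 µM replicate 3 and listed at 0 in every DMSO library. The split among copies differed between libraries of the same group. GAGE7 stood at 10.6, 9.72 and 13.2 CPM in DMSO but at 0, 19.5 and 13.5 CPM at 5 µM and at 15.1, 16.0 and 0 CPM at 10 µM. GAGE5 took 32.4% of the GAGE counts in 5 µM replicate 1 and was listed at 0 in DMSO. Between 5 and 12 of the 22 symbols were listed at 0 in a library.

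Summed, GAGE stood at 46.1, 43.8 and 41.4 CPM in DMSO, 54.1, 55.6 and 54.3 CPM at 5 µM and 95.7, 56.3 and 54.5 CPM at 10 µM. Every treated library was above every DMSO library. Fitted as 1 feature, the sum had a log2 fold change of 0.32 at 5 µM (SE 0.19, adjusted p = 0.339) and 0.65 at 10 µM (SE 0.19, adjusted p = 0.0217), where it was called. Without 10 µM replicate 1 the values were 0.32 (adjusted p = 0.000212) and 0.34 (adjusted p = 0.000175), both under the fold limit. GAGE1, with 87.1% unique sequence, had 0.27 at each dose (adjusted p = 0.473 and 0.32).

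**Figure D4:**
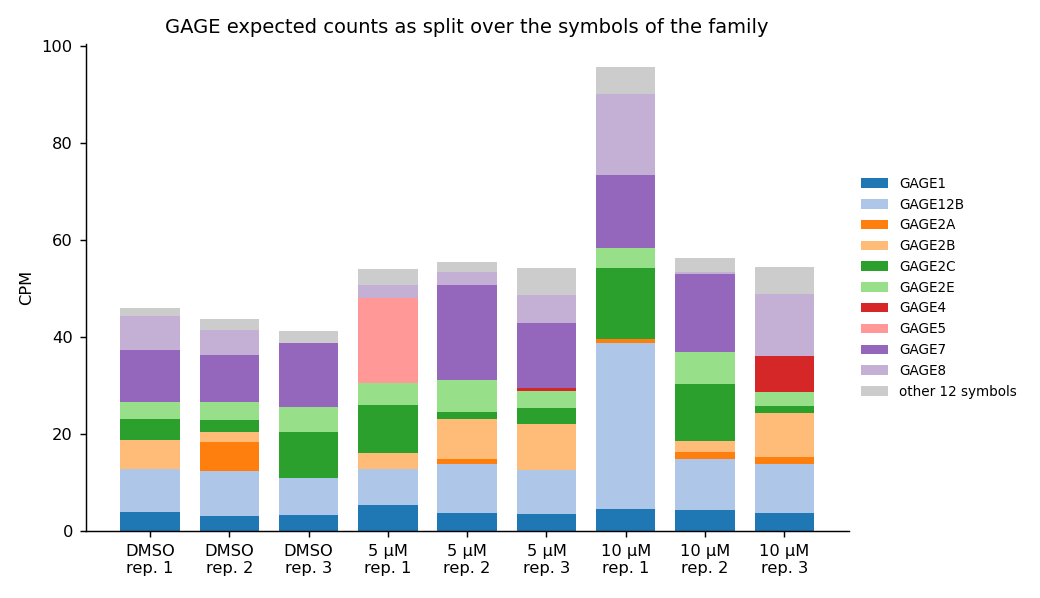
CPM of the GAGE symbols stacked for each library, with symbols that reach 5 CPM in any library shown apart and the other 12 in grey. The height of the bars is 41.4 to 46.1 CPM in DMSO and 54.1 to 56.3 CPM in 5 treated libraries apart from 95.7 CPM in 10 µM replicate 1, while the colors within the bars change from library to library.

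CTAG1A and CTAG1B, the copies that encode NY-ESO-1, also carried equal values in each library. Summed they stood at 127, 122 and 121 CPM in DMSO, 106, 107 and 92.8 CPM at 5 µM and 123, 73.0 and 77.3 CPM at 10 µM. All 5 µM libraries lay below DMSO, and at 10 µM replicate 1 lay within the DMSO range and the other 2 below it. The log2 fold change was -0.28 at 5 µM (SE 0.17, adjusted p = 0.381) and -0.44 at 10 µM (SE 0.17, adjusted p = 0.0765). Without replicate 1 it was -0.28 (adjusted p = 0.000675) and -0.72 (adjusted p = 6.94e-08), the latter past the fold limit, and 10 µM was lower than 5 µM by a log2 difference of -0.44 (adjusted p = 5.77e-05). CTAG2, which encodes LAGE-1, measured 1.51 to 2.53 CPM in DMSO and 1.79 to 2.44 CPM at 10 µM and was not called.

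PRAME, on chromosome 22 (chr22:22547701-22559361, GRCh38) and with fully unique sequence, was lower in every treated library. It measured 167, 170.3 and 171 CPM in DMSO, 158, 161 and 158 CPM at 5 µM and 159, 149 and 138 CPM at 10 µM. The log2 fold changes of -0.09 (SE 0.07, adjusted p = 0.506) and -0.18 (SE 0.07, adjusted p = 0.067) were not called. Without 10 µM replicate 1 the value at 10 µM was -0.24 (adjusted p = 0.000255).

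**Figure D5:**
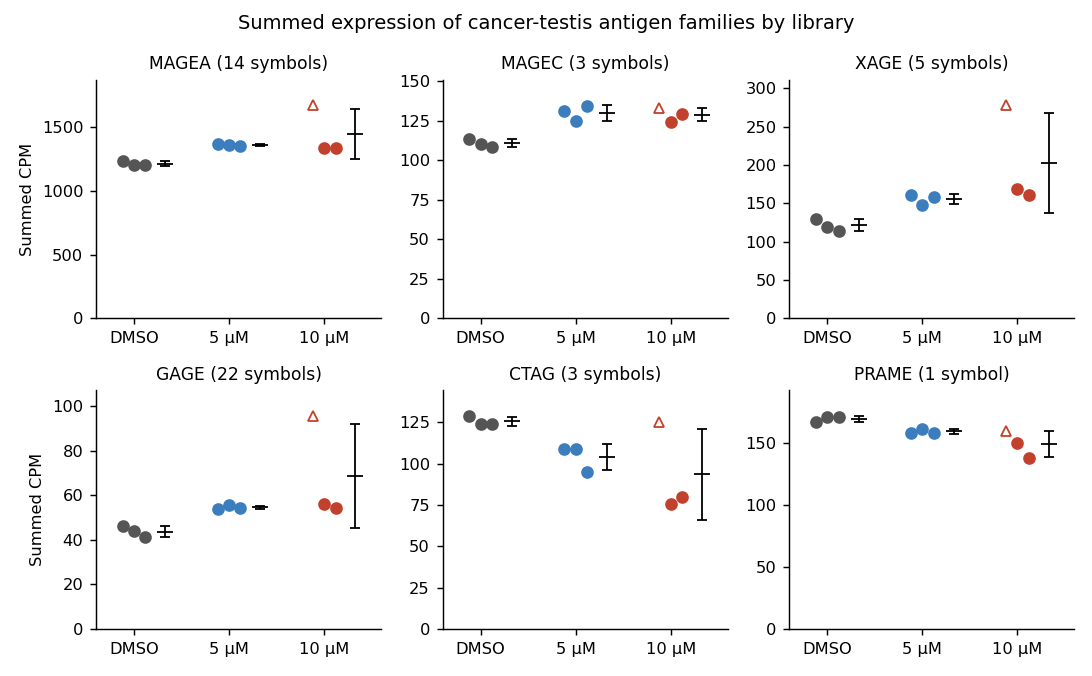
Summed CPM per library of 6 antigen families under DMSO, 5 µM and 10 µM TP-472, with the mean and SD of 3 libraries beside the points and an open triangle for 10 µM replicate 1. MAGEA, MAGEC, XAGE and GAGE lie above DMSO in every treated library, PRAME lies below DMSO in every treated library, and the triangle is the highest 10 µM point in each panel.

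Among the SSX genes, SSX2B stood at 6.49 CPM per kilobase in DMSO, at the 62.4th percentile of tested genes with a known length. SSX4 was listed at 0.366 and SSX2 at 0.126 CPM per kilobase. These single values depend on how shared reads were divided. All 50-base stretches of SSX2 are shared with SSX2B (100%), and all those of SSX4 with SSX4B (100%). Of the stretches of SSX2B, 11.8% are unique to it. Of the 4 tested symbols (SSX1, SSX2, SSX2B and SSX4) 0 were called by edgeR (beside 4.87% and 19.1% of all genes at 5 µM and 10 µM), with 0 at an unadjusted p under 0.05 at either dose (beside 24.4% and 44%). SSX2 and SSX2B together stood at 16.7, 13.7 and 14.1 CPM in DMSO, 12.9, 13.2 and 14.2 CPM at 5 µM and 17.0, 11.7 and 13.2 CPM at 10 µM. At 10 µM replicate 1 lay above every DMSO library and the other 2 below them all. The summed log2 fold change at 10 µM was -0.09 (SE 0.14, adjusted p = 0.688), and -0.25 without replicate 1 (adjusted p = 0.0684).

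Of the 12 symbols that met the rule by spelling, 3 passed the filter. SSX2IP, a centrosomal protein named for binding SSX2, measured 29.8, 29.9 and 27.7 CPM in DMSO, 29.6, 29.3 and 28.7 CPM at 5 µM and 11.98, 23.2 and 25.2 CPM at 10 µM. Its log2 fold change at 10 µM was -0.54 (adjusted p = 0.0842), and -0.27 without replicate 1 (adjusted p = 0.00525). CTAGE5, whose product takes part in export of cargo from the endoplasmic reticulum, had 0.17 at 10 µM (adjusted p = 0.156). CTAGE7P, a pseudogene at 1.09 to 1.30 CPM in DMSO, had -0.87 at 10 µM (adjusted p = 0.281), and -1.54 without replicate 1 (adjusted p = 0.0295).

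The 42 symbols under the filter included 9 at 0 in every library (GAGE12F, GAGE13, GAGE2D, MAGEB1, MAGEB10, MAGEB3, MAGEB4, MAGEB5 and SSX9) and 20 whose highest count was above 0 and under 10. At a depth of these libraries, 3 counts correspond to 0.0577 to 0.0709 CPM. The other 13 reached at least 10 counts in some library, namely CTAGE9, GAGE10, GAGE12D, GAGE4, GAGE5, MAGEA5, MAGEA8-AS1, MAGEA9B, MAGED4, MAGED4B, SSX4B, SSX5 and SSX6. Several of them owed this to a single library, such as SSX5 with 41.0 counts in 10 µM replicate 1 and GAGE12D with 242 counts in 10 µM replicate 3. The calls of GAGE4 and MAGEA5 without 10 µM replicate 1 likewise rest on 1 library each, with 365 counts of GAGE4 in 10 µM replicate 3 and 59.0 counts of MAGEA5 in 10 µM replicate 2.

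Between the doses, 0 of the 48 members were called by edgeR's quasi-likelihood test, beside 4.01% of all genes, with 4 at an unadjusted p under 0.05 (beside 24.8% of all genes) and 1 (GAGE12B, up) called by DESeq2 (beside 2.55% of all genes). GAGE12B measured 7.45, 9.96 and 9.12 CPM at 5 µM and 34.3, 10.5 and 10.1 CPM at 10 µM, so that the difference lay in replicate 1. Without that replicate 1 member was called up (GAGE4) and 1 down (CTAGE7P), beside 5.18% of all genes. With no limit on the fold the counts were 1 up and 8 down (17.6%, beside 24.2% of all genes), the 8 being CTAG1A, CTAG1B, CTAGE7P, MAGEA10, MAGED1, MAGEF1, PRAME and SSX2IP. Both dose comparisons use the same 3 DMSO libraries, so the members that were higher at 5 µM and at 10 µM are not independent observations.

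Factors known to act on cancer-testis gene promoters were read from the same fit. Of 24 tested epigenetic regulators, 0 rose and 3 fell at 10 µM (12.5%, beside 19.1% of all genes), and 0 were called at 5 µM (beside 4.87% of all genes). With no limit on the fold, 0 rose and 14 fell at 10 µM (58.3%, beside 34.3% of all genes). Without 10 µM replicate 1, ETS1 was higher at 10 µM (0.19, adjusted p = 0.00202). The other regulators with an adjusted p under 0.05 in that fit were lower, beside 48.8% of all genes under 0.05 in either direction. Libraries did not overlap between 10 µM and DMSO for 17 regulators, all lower (70.8%, beside 49.4% of all genes). Between 5 µM and DMSO they did not overlap for 19 regulators, 18 lower and 1 higher (79.2%, beside 48.8% of all genes). UHRF1, which directs maintenance DNA methylation, went from 143 to 108 and 70.9 CPM (group means), a log2 fold change of -1.01 at 10 µM (adjusted p = 9.48e-06). SP1, a transcription factor that binds MAGEA promoters, had -0.89 (adjusted p = 0.00236), and the DNA methyltransferase DNMT3A had -0.67 (adjusted p = 0.0203). DNMT3A stood at 14.2, 12.9 and 13.5 CPM in DMSO and 5.76, 8.86 and 10.8 CPM at 10 µM, and without 10 µM replicate 1 it was under the fold limit at -0.46 (adjusted p = 0.0023). That fit again called 3 regulators lower at 10 µM, UHRF1, SP1 and DNMT3B (12.5%, beside 19.2% of all genes). DNMT1 had -0.41 (adjusted p = 0.00908), under the fold limit.

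Among 20 tested partners of MAGE, SSX and PRAME proteins, 2 fell at 10 µM and 0 rose (10.0%, beside 19.1% of all genes). With 10 µM replicate 1 left out, 3 fell (LNX1, RARA and NGFR) and 2 rose (LHX4 and RAB3IP), which is 25% beside 19.2% of all genes. NGFR, a receptor bound by MAGED1, had a log2 fold change of -1.04 at 5 µM (adjusted p = 0.000524) and -0.81 at 10 µM (adjusted p = 0.000524), and LNX1, a ubiquitin ligase, had -0.86 at 10 µM (adjusted p = 0.0216). TRIM28 stayed at 569, 574 and 573 CPM in the 3 groups. The probe's targets were not called, with 0.27 for BRD9 (adjusted p = 0.0763) and -0.19 for BRD7 (adjusted p = 0.111) at 10 µM, nor was SS18 with -0.09 (adjusted p = 0.367). Leaving out 10 µM replicate 1 gave 0.16 for BRD9 (adjusted p = 0.0913), -0.12 for BRD7 (adjusted p = 0.0817) and -0.05 for SS18 (adjusted p = 0.464).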

How the data were processed

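mRNA of 9 A375 libraries (3 each for DMSO, 5 µM and 10 µM TP-472, 24 h) was analysed. The values deposited by the authors are expected counts from RSEM by gene symbol, unscaled. The submitters' processing notes name Bowtie2 2.1.0, RSEM 1.2.15 and hg38, with annotation, filters and strand setting not given in the sources used here. Oligo-dT beads and dUTP strand marking are described in the methods, ribosomal RNA depletion in the design text. RSEM divides reads shared by copies, so single-copy values of MAGEA2, GAGE, XAGE1, CTAG1, SSX2 or SSX4 are uncertain.

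Counts were rounded, scaled by TMM (factors 0.957 to 1.029), filtered with filterByExpr and tested with edgeR 4.0.16 (quasi-likelihood F test, R 4.3.3, all 3 groups in 1 fit), with Benjamini-Hochberg adjustment over 16417 genes. Standard errors are the ratio of the log2 fold change to the root of the F statistic. Members were matched by symbol to GENCODE 29 (76 of 90), and sequence uniqueness is the share of 50-base stretches found in 1 gene (38 members at 80% or more). Upstream windows are from RefSeq, GRCh38.p14. The members and lists were chosen with earlier results of these data known. Members passing the filter are named, with values per library for those called in any comparison and the 5 highest in DMSO. From related lists the called genes with the smallest p, up to 6 a list, and BRD9, BRD7 and SS18 are named. Values per library of other members were added after they were seen. The methods describe biological replicates for all experiments, but the labels do not tie libraries to separate cultures, so p-values measure the spread between these libraries. No 2 libraries agreed within sampling noise (smallest chi-square per degree of freedom 5.43).

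Alternatives were 2 other scalings, 2 other filters, DESeq2 1.42.0, limma-voom (limma 3.58.1), a replicate block, each library left out, only the groups compared, no fold limit and summed copies. The combinations of summed copies, or of no fold limit, with leaving out 10 µM replicate 1 were added after seeing the data. In counts simulated for the 5 µM and 10 µM comparisons over 16417 genes, 63% and 59% of genes changed 2-fold were recovered at an adjusted p under 0.05, and 28% and 21% of those changed 1.5-fold. Only 100 genes were changed at each fold, whereas 799 and 3137 genes were called in the data. The adjustment is stricter where fewer genes change, so these shares do not give the recovery in the data.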

Additional observations from a re-analysis of the deposited data

How the results depend on the processing

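Of the values recomputed under alternatives, 616 kept their side of the threshold or moved within the spread, 20 moved beyond it, 13 lost and 7 gained a call and 4 changed sign. The count of members that rose at 5 µM was 1, and became 3 with DESeq2, 3 with only the 2 groups compared, and 0 to 4 when single libraries were left out (0 without any 1 DMSO library, 5 µM replicate 1 or 5 µM replicate 2, 2 without 5 µM replicate 3 or 10 µM replicate 2, and 4 without 10 µM replicate 1). At 10 µM the 6 that rose became 11 with no limit on fold and 5 to 7 with single libraries left out, and the 0 that fell became 0 to 3, with 3 without 10 µM replicate 1 and 1 without 10 µM replicate 3. Between doses, 1 rose with DESeq2, and leaving out libraries gave 0 to 1 up and 0 to 1 down. The cause of these shifts was not tested. The MAGEA sum at 5 µM, a log2 ratio of 0.17, was 0.18 with upper-quartile scaling and 0.16 to 0.18 with libraries left out, and the GAGE sum at 5 µM, 0.32, ranged from 0.28 to 0.36. MAGED1 at 10 µM changed sign around 0, at 0.033 with upper-quartile scaling, 0.012 with a filter of 1 CPM in 3 libraries, and -0.057 to 0.028 with libraries left out. MAGEA9 at 10 µM was not called with limma-voom (adjusted p = 0.346). The replicate numbers did not pair the libraries (correlations of same-numbered libraries from -0.05 to 0.03), and with the replicate block 5 members rose at 10 µM and 1 at 5 µM, MAGEA9 being the call lost (adjusted p = 0.0558). The depth limits members near 3 counts a library. Changes of 1.5-fold were mostly not recovered in simulated counts, where fewer genes changed than were called in the data.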

Other observations

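Other cancer-testis genes outside the families above moved in both directions. Of 42 tested genes of a list written from general knowledge, 7 rose and 8 fell at 10 µM (35.7%, beside 19.1% of all genes), and 1 rose and 1 fell at 5 µM (4.76%, beside 4.87%). With 10 µM replicate 1 left out, 5 rose and 9 fell of 43 at 10 µM (32.6%, beside 19.2% of all genes), and 3 rose (PAGE1, TEX14 and TEX15) and 2 fell (PBK and SPANXA1) at 5 µM (11.6%, beside 7.41%). Those with the smallest p at 10 µM were IGF2BP3, an RNA-binding protein, PBK, NUF2 and TTK, which act in mitosis, ATAD2, a bromodomain protein, and TEX14, a germ cell bridge protein. IGF2BP3 went from 270.5 to 209 and 115 CPM (group means, log2 fold change -1.24 at 10 µM, adjusted p = 8.34e-06), and PBK from 55.3 to 36.6 and 24.4 CPM (-1.18, adjusted p = 9.79e-06). TEX14 went from 0.12 to 0.724 and 1.83 CPM (3.90, adjusted p = 0.00212). By a choice made after their values were seen, all called genes are named: the 8 that fell were IGF2BP3, PBK, NUF2, ATAD2, TTK, OIP5, SPANXA1 and SPAG4, and the 7 that rose were TEX14, CSAG3, PAGE2, PAGE1, CT55, CSAG1 and SPAG1, which include X-linked relatives of GAGE (PAGE1 and PAGE2). In the fit without 10 µM replicate 1, TEX15 (1.77, adjusted p = 0.00117) and CT45A5 (-1.25, adjusted p = 1.93e-05) were called at 10 µM in addition, while CSAG3 (0.58), PAGE2 (0.46) and CSAG1 (0.39) were under the fold limit with adjusted p of 2.45e-05, 0.000139 and 0.00058. Symbols of 1 family differed in that fit at 10 µM. CT45A1 had -0.16 (adjusted p = 0.167), and SPANXA1, SPANXB1, SPANXC and SPANXD had -1.57, 0.32, -0.27 and -0.30. The sharing of reads among symbols was not measured for this list. The adjusted p are from edgeR's quasi-likelihood test.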
